A study of Mus musculus with 26 samples.

Results

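Spry1, Spry2, Spry4, Spred1, Spred2, Dusp6, Etv1, Etv4, Etv5 and Il17rd are genes that cells switch on in response to fibroblast growth factor (FGF) signalling through the kinase ERK, and most of them encode inhibitors of that same pathway. They were chosen by name as feedback and target genes of FGF-ERK signalling, and all 10 were found by gene identifier among the 57186 genes of the table that holds wild type (WT) and 4 Fgf9 deletions. RNA-seq was made from poly(A) RNA of XY mouse gonads, dissected at E13.5 and cleared of the mesonephros. The 26 samples comprised WT (3), the Fgf9 deletions Δ306 (3), Δ225 (6), Δ104 (4) and Δ93 (6), and Meis1 KO (4), whose libraries are in a separate table with the same WT libraries. For each deletion the labels give a name only, without its boundaries, the number of alleles carried or the line it came from, and they say no more of Meis1 KO. Samples of Δ225, Δ104, Δ93 and Meis1 KO are called biological replicates and those of WT and Δ306 replicates, with no animal or litter named, so the p-values measure only the spread between these samples, which may be technical. WT and Δ306 were also listed as a run of samples apart from the other groups. Whether the sets were prepared or sequenced apart is not given. Such a difference could not be told from group where a comparison crosses the sets. Only Δ306 against WT and the comparisons among Δ225, Δ104 and Δ93 stay within a set.

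FGFs bind receptor tyrosine kinases, which pass the signal through Ras, Raf and MEK to ERK. Active ERK relieves repression by Capicua (Cic) and activates ETS transcription factors, and the genes it induces include both effectors (Etv1, Etv4, Etv5) and brakes (Sprouty and Spred proteins, Dusp6, Il17rd), so their mRNA is widely read as an output of the pathway. In the XY gonad Fgf9, acting through Fgfr2, favours the differentiation of supporting cells into Sertoli cells, and without it supporting cells can take the pre-granulosa fate of the ovary.

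Libraries held 11.6 to 53.4 M counts in the table of all deletions and 35.5 to 51.7 M in that of Meis1 KO, and every member had at least 62 counts in every library of the former. The 5 gonadal somatic markers (Gata4, Nr5a1, Wt1, Lhx9, Emx2) were detected in all groups, with summed levels of 871 to 1631 CPM (counts scaled to the library total by TMM factors) in the table of all deletions. Several libraries stood apart. WT replicate 1 had a germ-cell marker sum of 16.1 CPM, against 385 and 556 CPM in the other WT libraries. Δ93 replicate 4 and Δ93 replicate 1 had erythroid marker sums of 54663 and 40983 CPM, against at most 26962 CPM elsewhere in that table. The summed level of 4 Y-linked genes (Ddx3y, Eif2s3y, Kdm5d, Uty) was 31.2 to 77.2 CPM in WT but under 0.25 times the WT median in all 6 Δ93, 3 Δ104, 2 Δ225 and 1 Δ306 library, although all were labelled XY. Xist, which is expressed from an inactive X chromosome, was at 0.0491 to 6.42 CPM, highest in Δ93 replicate 4. Of the 4 Meis1 KO libraries 2 were also under that limit, and counts without the libraries of low Y-linked levels stand beside the results where they could be made.

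The level of Fgf9 itself differed between the groups. Fgf9 was at 9.85, 9.21 and 9.55 CPM in WT, at 2.94, 2.17 and 2.33 CPM in Δ306, and at 2.72, 5.16, 6.98 and 4.52 CPM in Δ104. In Δ93 it lay between 2.30 and 4.75 CPM (median 2.85) and in Δ225 between 3.69 and 16.5 CPM (median 5.43), where only replicate 3 was above 6.36 CPM. All Δ306, Δ104 and Δ93 libraries were below all WT libraries for Fgf9, and the Δ225 libraries overlapped them.

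Promoter windows (250 bases before to 50 after an annotated start, RefSeq on GRCm38.p6) were at hand for 8 of the 10 genes, and 4 are shown. Dusp6 and Spry1 had levels that followed each other most closely across libraries. Etv5 held the most copies of TGAATG, a form of the Capicua core, and Spry2 alone held the searched ETS core. Capitals mark TGAATG or CCGGAA on either strand, and other forms of the Capicua octamer and its core were not searched and are not marked. The windows were chr10:99262981-99263280 (+) for Dusp6, chr3:37639697-37639996 (+) for Spry1, chr16:22438319-22438618 (-) for Etv5 and chr14:105896770-105897069 (-) for Spry2, each written 5′ to 3′ on the strand of the gene.
Dusp6: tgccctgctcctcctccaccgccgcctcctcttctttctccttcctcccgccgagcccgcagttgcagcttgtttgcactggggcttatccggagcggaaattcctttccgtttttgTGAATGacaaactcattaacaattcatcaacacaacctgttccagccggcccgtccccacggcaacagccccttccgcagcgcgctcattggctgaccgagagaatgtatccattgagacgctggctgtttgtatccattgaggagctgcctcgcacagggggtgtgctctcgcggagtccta
Spry1: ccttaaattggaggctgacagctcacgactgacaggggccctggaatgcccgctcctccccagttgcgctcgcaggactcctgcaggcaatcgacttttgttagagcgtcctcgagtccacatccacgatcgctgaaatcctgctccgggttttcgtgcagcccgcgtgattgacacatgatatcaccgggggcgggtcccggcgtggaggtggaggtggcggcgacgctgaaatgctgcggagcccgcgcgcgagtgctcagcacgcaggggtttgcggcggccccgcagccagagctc
Etv5: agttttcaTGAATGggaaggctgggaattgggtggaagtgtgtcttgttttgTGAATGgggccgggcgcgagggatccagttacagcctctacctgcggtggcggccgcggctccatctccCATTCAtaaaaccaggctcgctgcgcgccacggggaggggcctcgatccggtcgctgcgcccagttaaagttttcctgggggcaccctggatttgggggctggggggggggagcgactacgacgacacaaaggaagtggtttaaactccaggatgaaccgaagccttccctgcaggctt
Spry2: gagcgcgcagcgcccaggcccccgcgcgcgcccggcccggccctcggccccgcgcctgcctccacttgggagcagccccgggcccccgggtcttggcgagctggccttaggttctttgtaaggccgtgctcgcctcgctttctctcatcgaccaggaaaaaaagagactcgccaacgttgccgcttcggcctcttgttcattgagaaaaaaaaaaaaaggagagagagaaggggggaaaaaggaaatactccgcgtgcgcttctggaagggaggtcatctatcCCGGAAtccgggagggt

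The motifs searched on both strands were the ETS core CCGGAA, TGAATGNA as a form of the Capicua octamer, the cAMP-response half-site TGACG and the AP-1 site TGANTCA. Of these, CCGGAA was found only in Spry2, 33 bases after the start, and was in 14.9% of all 32851 promoter windows. TGACG was found only in Spred2, 51 bases before the start, and was in 20.8% of windows. TGAATGNA (3.82% of windows) and TGANTCA (7.81%) were in none of the 8 genes, and other forms of the Capicua octamer were not searched. The 6-base core TGAATG, which lies within the octamer form searched and was chosen after the letters had been seen, was in 12.7% of windows. Dusp6 held 1 copy, 133 bases before the start. Etv5 held 3 copies in the window shown, 242, 198 and 129 bases before the start, and 0 in its other window. Of all windows 0.17% held 3 or more, a share given as description only, since the core and the window were picked from the letters. These are matches of letters only, in windows that may not be the start sites used in the gonad.

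In the GRCm38 gene models (GENCODE M21) the genes lie at chr3:37639947-37644598 (Spry1), chr14:105891947-105896819 (Spry2), chr2:117121374-117182279 (Spred1), chr11:19924375-20024026 (Spred2), chr10:99263231-99267489 (Dusp6), chr14:27038941-27107286 (Il17rd), chr12:38779380-38870484 (Etv1), chr11:101769742-101785371 (Etv4) and chr16:22381309-22439719 (Etv5), with Spry4 on chromosome 18. Spry2 and Il17rd share chromosome 14 with Fgf9 (chr14:58070547-58112720) and are 47.8 and 31.0 Mb away from it.

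Levels per length in WT were highest for Etv5, at a mean of 33.7 ± 12.7 CPM per kilobase of exon (SD, n = 3), and for Dusp6 at 22.01 ± 2.15. Spred1, between 17.1 and 18.5 CPM per kilobase in the WT libraries, came next, followed by Spry1 at 14.1 ± 1.52, Spred2 at 13.3 ± 1.66 and Spry2 at 13.1 ± 2.07. Etv4 at 9.35 ± 4.62, Il17rd at 7.71 ± 1.97 and Spry4 at 7.65 ± 0.859 were lower, and Etv1 was lowest at 2.18 ± 0.693, near Fgf9 at 2.05 ± 0.0689. In this order the steps from Dusp6 to Spred1, from Spred1 to Spry1 and from Spry4 to Etv1 were larger than the SDs of both neighbours, and the other steps were not.

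**Figure D1:**
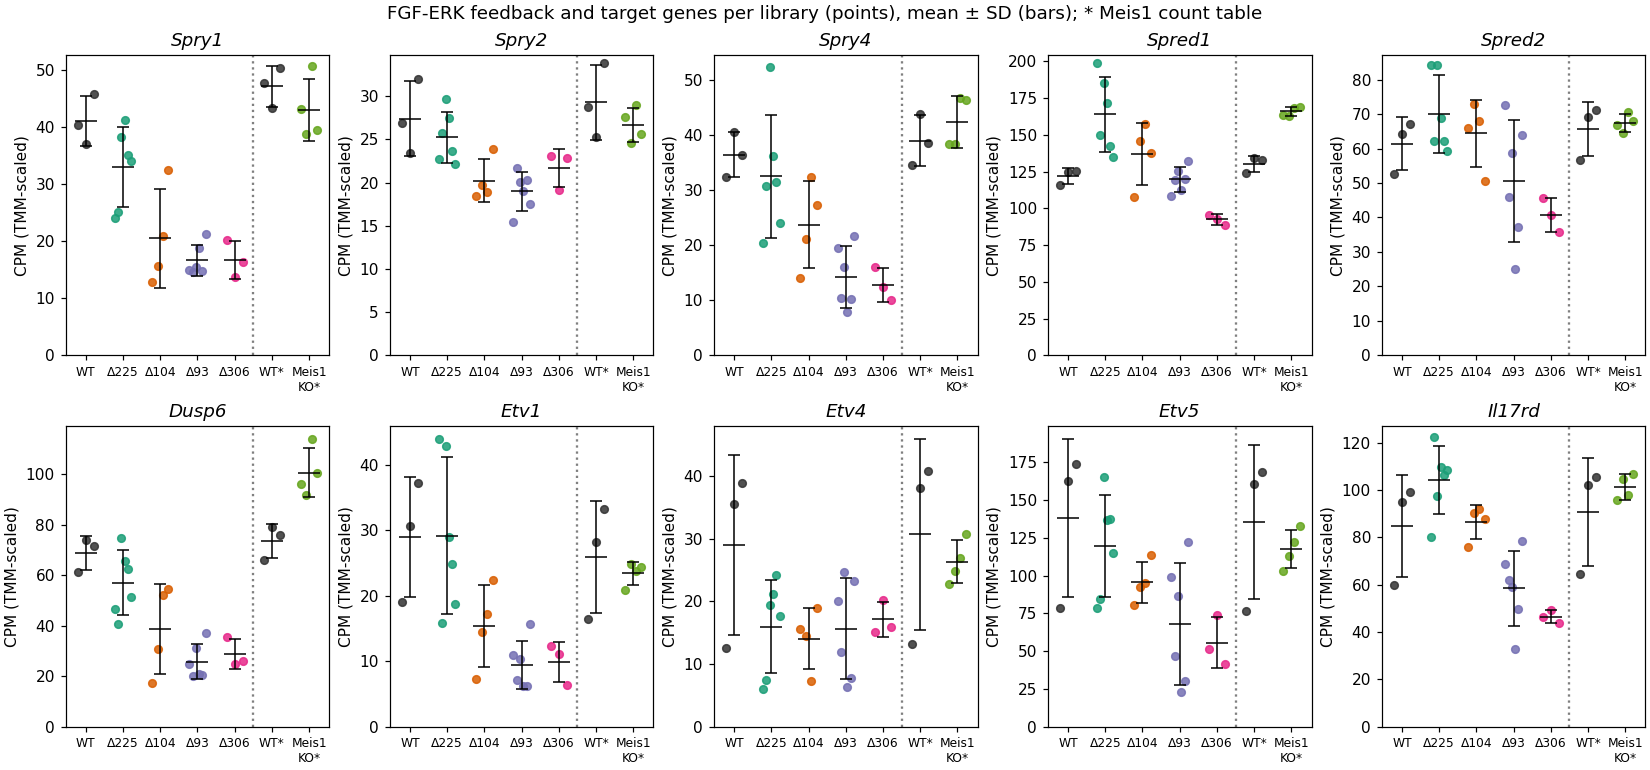
Level of each of the 10 genes (CPM, linear axis from 0) in every library, by group. Points are libraries, and horizontal lines with bars are mean ± SD. Groups marked * come from the Meis1 table, which holds other counts of the same WT libraries. Spry1, Spry4, Dusp6 and Etv1 are low in every Δ306 and Δ93 library, while Δ225 overlaps WT and Δ104 spreads between them.

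Spry1, Spry4, Dusp6 and Etv1 were lower in both Δ306 and Δ93 than in WT. Against WT, 5 of the 10 genes fell in Δ306 (these 4 and Il17rd), where 3.46% of all genes fell and 2.96% rose. In Δ93 5 fell (these 4 and Spry2), where 6.84% of all genes fell and 7.23% rose, and no member rose in either. A change was called at an adjusted p under 0.05 by edgeR's quasi-likelihood test, with Benjamini-Hochberg adjustment over all 22941 genes tested. The fitted log2 fold change was below 0 for all 10 genes in both, with a median of −1.06 in Δ306 and −0.96 in Δ93, where the median of all genes was 0.08 and 0.06. The Δ306 and Δ93 comparisons share the WT libraries. In these whole gonads, fewer cells of a type and less RNA per cell cannot be told apart.

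The 3 Sprouty genes encode adaptors that block the path from the receptor to Raf, and Spry1 and Spry4 fell in both deletions. Spry1 was at 40.3, 37.0 and 45.8 CPM in WT and at 20.3, 13.6 and 16.3 CPM in Δ306, and it ranged from 14.7 to 21.2 CPM (median 15.2) in Δ93. Every Δ306 and Δ93 library was below every WT library. Spry1 fell to 40.7% of WT in Δ306 (SE 0.28 on the log2 scale, adjusted p 0.0107) and to 40.5% in Δ93 (SE 0.23, adjusted p 0.0014).

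Spry4 was at 32.4, 40.5 and 36.3 CPM in WT and at 16.0, 12.3 and 9.96 CPM in Δ306, and it ranged from 7.77 to 21.6 CPM (median 13.2) in Δ93. Again no library of either deletion reached the WT libraries. The fall was 1.51 on the log2 scale in Δ306 (SE 0.37, adjusted p 0.0216) and 1.35 in Δ93 (SE 0.31, adjusted p 0.00626). Spry2, the third Sprouty gene, was at 26.9, 23.4 and 32.0 CPM in WT, at 23.0, 19.2 and 22.9 CPM in Δ306 and at 15.4 to 21.7 CPM (median 19.5) in Δ93. Both deletions lay below WT, but by less: the log2 fold change was −0.53 in Δ93 (SE 0.14, adjusted p 0.0164), a call, and −0.34 in Δ306 (SE 0.17, adjusted p 0.239), not a call. Of 15 alternatives 13 kept the Spry2 call in Δ93, and leaving out WT replicate 1 (adjusted p 0.0545) or replicate 3 (adjusted p 0.119) lost it.

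The Spred proteins, membrane-bound relatives of Sprouty that hold the Ras-GAP neurofibromin at the membrane, were not called in either deletion against WT. Spred1 was at 116.0, 124.9 and 125.6 CPM in WT, at 95.8, 93.01 and 88.5 CPM in Δ306, and at 109 to 132 CPM (median 119.7) in Δ93. The Δ306 libraries were all below WT (log2 fold change −0.40, SE 0.15, adjusted p 0.111), and the Δ93 libraries overlapped it (−0.03, 95% interval −0.30 to 0.24). Spred2 was at 52.7, 64.2 and 67.2 CPM in WT, at 45.6, 40.6 and 35.7 CPM in Δ306 and at 25.2 to 72.7 CPM (median 52.3) in Δ93. Its log2 fold change was −0.60 in Δ306 (adjusted p 0.198) and −0.28 in Δ93 (adjusted p 0.463).

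Dusp6, the phosphatase that removes the activating phosphates from cytoplasmic ERK, was at 61.2, 73.9 and 71.6 CPM in WT and at 35.5, 25.0 and 25.8 CPM in Δ306. In Δ93 it ranged from 20.1 to 37.1 CPM (median 22.8). No library of either deletion came near WT. Dusp6 fell by 1.26 on the log2 scale in Δ306 (SE 0.33, adjusted p 0.0285) and by 1.42 in Δ93 (SE 0.27, adjusted p 0.00237), to 37.3% of WT.

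Il17rd encodes Sef, a transmembrane protein that restrains FGF receptor and ERK signalling. It was at 59.9, 94.8 and 99.4 CPM in WT, at 46.4, 49.3 and 43.6 CPM in Δ306, and at 32.7 to 78.4 CPM (median 60.6) in Δ93. The Δ306 libraries were all below WT and tightly grouped, whereas Δ93 overlapped WT replicate 1, the library low in germ-cell markers. Il17rd fell by 0.87 in Δ306 (SE 0.24, adjusted p 0.0325). In Δ93 its log2 fold change was −0.54 (SE 0.20, adjusted p 0.0759), and −0.73 (adjusted p 0.0437) without WT replicate 1.

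Of the PEA3 group of ETS factors, Etv1 fell in both deletions. It was at 19.1, 30.7 and 37.2 CPM in WT, at 12.3, 11.1 and 6.43 CPM in Δ306, and at 6.16 to 15.7 CPM (median 8.72) in Δ93. All libraries of both deletions were below WT, and Etv1 showed the largest called fall of the 10 genes, 1.55 on the log2 scale in Δ306 (SE 0.44, adjusted p 0.0405) and 1.62 in Δ93 (SE 0.36, adjusted p 0.00566).

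Etv5, the most highly expressed member per length, was at 78.3, 163 and 174 CPM in WT, at 51.5, 74.0 and 41.4 CPM in Δ306 and at 23.0 to 122 CPM (median 66.6) in Δ93. Its spread was wide in every one of these groups, and WT replicate 1 was close to the highest Δ306 library. The log2 fold change was −1.31 in Δ306 (SE 0.47, adjusted p 0.0988) and −1.02 in Δ93 (SE 0.39, adjusted p 0.0837), neither a call. In Δ306 Etv5 was called by DESeq2 (adjusted p 0.0474), in a fit of the 2 groups alone (adjusted p 0.0319) and in the smaller table of Δ306 and WT (adjusted p 0.043). Calls over all genes in these were 2707, 3429 and 3101, against 1474 in the main fit. Without WT replicate 1 the values were −1.62 (adjusted p 0.0799) and −1.31 (adjusted p 0.0676).

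Etv4 was at 12.6, 35.6 and 38.9 CPM in WT, at 15.1, 20.3 and 16.0 CPM in Δ306 and at 6.26 to 24.6 CPM (median 16.0) in Δ93. WT replicate 1 was the lowest of the WT libraries and lay below every Δ306 library, and the other 2 WT libraries were above all libraries of the deletions. The log2 fold change was −0.76 in Δ306 (adjusted p 0.442) and −0.89 in Δ93 (adjusted p 0.202). Without WT replicate 1 it was −1.15 (adjusted p 0.267) and −1.25 (adjusted p 0.123), still not called.

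In Δ306 the count of 5 became 0 without Δ306 replicate 2 or replicate 3, where the calls over all genes went from 1474 to 362 and 205. The fitted changes stayed near their size, at −1.53 and −1.40 for Spry4, −1.67 and −1.35 for Etv1 and −0.94 and −0.86 for Il17rd. Leaving out replicate 2 or 3 of WT gave 1 and 2 calls, where 504 and 631 of all genes were called. In a fit of the Δ306 and WT libraries alone the count was 8, where calls over all genes rose to 3429. Without the libraries of low Y-linked counts it was 3 (Spry1, Spry4, Dusp6), where 456 of all genes were called. In Δ93 the count stayed between 4 and 7 whichever library was left out. By library overlap, 9 of 10 genes had all Δ306 libraries below all WT libraries, where 18.4% of all genes did, and 5 of 10 had all Δ93 libraries below WT, where 12.5% did.

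**Figure D2:**
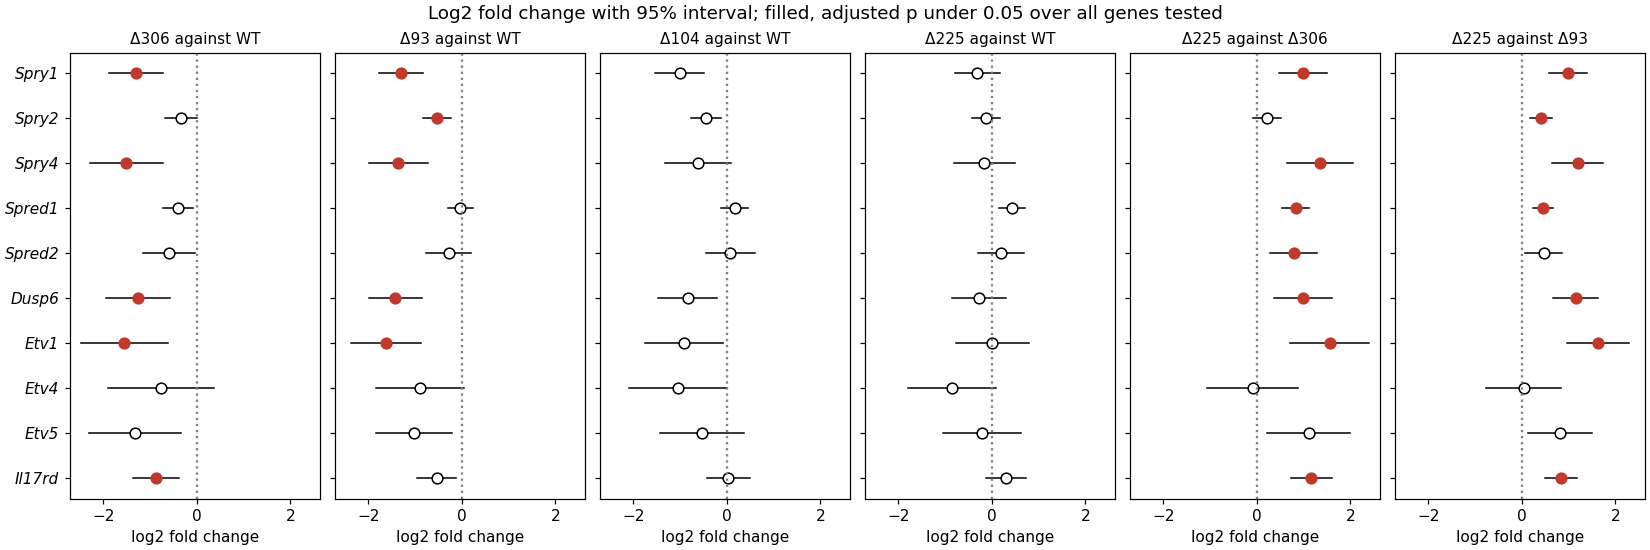
Fitted log2 fold change of each gene (x axis) with its 95% interval in 6 comparisons; filled points have an adjusted p under 0.05 over all genes tested. The points for Spry1, Spry4, Dusp6 and Etv1 are filled in the comparisons of Δ306 and Δ93 with WT and of Δ225 with Δ306 and Δ93, and none is filled for Δ104 or Δ225 against WT.

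Between deletions, Spry1, Spry4, Spred1, Dusp6, Etv1 and Il17rd were higher in Δ225 than in both Δ306 and Δ93. Against Δ306, 7 of 10 genes were called higher, where 6.47% of all genes were: Spred1, Il17rd, Spry4, Spry1, Etv1, Dusp6 and Spred2. Against Δ93, 7 of 10 were called higher, where 9.96% of all genes were: Etv1, Spry1, Il17rd, Dusp6, Spry4, Spred1 and Spry2. None was called lower in Δ225, where 6.74% and 10.8% of all genes were. The median log2 fold change of the 10 genes was 0.98 against Δ306 and 0.82 against Δ93, with medians of −0.01 and 0.00 over all genes, and the 2 comparisons share the Δ225 libraries.

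The Δ225 libraries gave 24.0 to 41.2 CPM of Spry1 (median 34.6), 40.8 to 74.8 CPM of Dusp6 (median 56.9) and 15.8 to 44.0 CPM of Etv1 (median 26.9), and for all 3 genes every one of them was above every Δ306 and Δ93 library. Etv1 had the largest differences, 1.55 on the log2 scale against Δ306 (SE 0.40, adjusted p 0.0156) and 1.63 against Δ93 (SE 0.31, adjusted p 0.00105), or 294% and 309% of the other group. Spry1 differed by 0.98 (SE 0.25, adjusted p 0.013) and 0.99 (SE 0.19, adjusted p 0.00122). Dusp6 differed by 0.99 (SE 0.30, adjusted p 0.032) and 1.15 (SE 0.23, adjusted p 0.00169).

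Spry4 ranged from 20.3 to 52.3 CPM in Δ225 (median 31.1), with its highest value in replicate 3, the library with 16.5 CPM of Fgf9. It was above all Δ306 libraries (log2 difference 1.35, adjusted p 0.0129) and overlapped Δ93 at its lower end (1.19, adjusted p 0.00301). Il17rd ranged from 80.0 to 122 CPM in Δ225 (median 107), above all libraries of both other deletions, and was higher than in Δ306 by 1.17 (SE 0.21, adjusted p 0.0017) and than in Δ93 by 0.83 (SE 0.17, adjusted p 0.00137).

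Spred1 was the gene with the smallest adjusted p against Δ306. It was at 199, 150.2, 185, 172, 143 and 135 CPM in Δ225, above all libraries of WT, Δ306 and Δ93, and was higher than in Δ306 by 0.83 (SE 0.13, adjusted p 7.57e-04) and than in Δ93 by 0.45 (SE 0.11, adjusted p 0.00452). Spred2 was at 59.2 to 84.2 CPM (median 65.6), higher than in Δ306 by 0.79 (adjusted p 0.0352) and than in Δ93 by 0.47, not called (adjusted p 0.0848). Spry2 was at 22.1 to 29.7 CPM (median 24.7), higher than in Δ93 by 0.41 (adjusted p 0.0175) and not called against Δ306 (0.22, adjusted p 0.345). Etv4 was not called in either comparison, with log2 differences of −0.09 (95% interval −1.06 to 0.88) and 0.04 (95% interval −0.76 to 0.83), and Etv5 was at 215% of Δ306 (adjusted p 0.0882) and 176% of Δ93 (adjusted p 0.0846), neither called.

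All Δ225 libraries were above all Δ306 libraries for 8 of the 10 genes, where 9.82% of all genes were, and above all Δ93 libraries for 6 of the 10, where 5.39% were.

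Against Δ306 the 7 calls became 3 without Δ306 replicate 2 and 2 without Δ306 replicate 3, where the calls over all genes went from 3030 to 1283 and 887, and the fitted differences were 0.88 and 0.99 for Spry1 and 1.35 and 1.22 for Spry4. Against Δ93 they stayed between 6 and 9 with any library left out. Without the libraries of low Y-linked counts none of the 10 genes was called by edgeR against Δ306 (718 of all genes were), where 4 Δ225 and 2 Δ306 libraries were left, and the comparison with Δ93 could not be made.

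Against WT itself, Δ225 gave no call among the 10 genes by edgeR, where 0.209% of all genes were called. The count at an unadjusted p under 0.05 was 1 (3687 of all genes), and DESeq2 called 1 (781 of all genes), Spred1 in both cases. All 6 Δ225 libraries were above WT for Spred1, as for 5.22% of all genes, and its fitted change was 0.42 on the log2 scale (SE 0.13, adjusted p 0.159 by edgeR and 0.0391 by DESeq2). Among the other inhibitors Spry1 was at −0.32, Spry2 at −0.12, Spry4 at −0.16, Dusp6 at −0.27, Il17rd at 0.30 and Spred2 at 0.19, none of them called. Etv1 was at 0.01 (95% interval −0.77 to 0.78) and Etv5 at −0.21. Etv4 had the lowest value, −0.85 (95% interval −1.80 to 0.09), with 6.05 and 7.42 CPM in Δ225 replicates 1 and 2 and 17.7 to 24.2 CPM in the other 4.

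The 4 Δ104 libraries had the largest SD of any deletion for Dusp6 (17.9 CPM) and Spry1 (8.64 CPM). Dusp6 was at 17.2, 30.7, 52.0 and 54.7 CPM in replicates 1 to 4, from below every Δ306 and Δ93 library to within the range of Δ225. Spry1 was at 12.9, 15.7, 20.9 and 32.4 CPM and Etv1 at 7.36, 14.4, 17.3 and 22.5 CPM in the same libraries, while Spry4 was at 14.1, 21.03, 32.4 and 27.2 CPM. Replicate 1 was lowest for all 4 genes, and for Spred1 (108 against 138 to 157 CPM), Etv5 (80.7 against 92.8 to 113 CPM) and Il17rd (75.9 against 87.6 to 91.9 CPM) as well.

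No member was called in Δ104 against WT by edgeR, where 0.061% of all genes were called. At an unadjusted p under 0.05 there were 5, all lower, where 3610 of the 22941 genes were under it, and DESeq2 called 1, Spry1, with 591 of all genes. Spry1 and Dusp6 were below WT in all 4 libraries, as were 9.4% of all genes, at log2 fold changes of −1.01 (SE 0.25, adjusted p 0.0925) and −0.84 (SE 0.30, adjusted p 0.222). Without Δ104 replicate 4, Spry1 was called, at −1.32 (adjusted p 0.00394), where calls over all genes went from 14 to 528. Spred1, Spred2 and Il17rd lay around WT at 0.17, 0.07 and 0.03.

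The other comparisons of Δ104, and Δ93 against Δ306, also gave no call by edgeR. In Δ104 against Δ306, 0.0654% of all genes were called. Among the 10 genes 4 had an unadjusted p under 0.05 (2547 of all 22941 genes). DESeq2 called 2 (389 of all genes), Spred1 (0.57, edgeR adjusted p 0.121) and Il17rd (0.90, edgeR adjusted p 0.122). These 2, Spred2 and Etv5 were above Δ306 in all 4 Δ104 libraries, 4 of the 10 genes, where 5.79% of all genes were. In Δ225 against Δ104, 0.645% of all genes were called, and 5 of the 10 genes had an unadjusted p under 0.05 (2423 of all genes) with none called by DESeq2. In Δ93 against Δ104, 0.0523% were called, and 3 of the 10 genes had an unadjusted p under 0.05 (3326 of all genes) with none called by DESeq2. In Δ93 against Δ306, 0.0785% were called, and 1 of the 10 genes had an unadjusted p under 0.05 (2065 of all genes) with none called by DESeq2. That gene was Spred1, which was higher in all 6 Δ93 than in all 3 Δ306 libraries (0.37, 95% interval 0.10 to 0.65, adjusted p 0.367), as for 3.36% of all genes, while Spry1 differed by −0.01 (95% interval −0.50 to 0.48) between the same groups.

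Summed levels of cell-type markers differed between libraries along with several members. The summed level of 12 Sertoli markers, among them Sox9, Amh and Dhh, was 2151 to 2592 CPM in WT, 727 to 2419 CPM in Δ225, 145 to 637 CPM in Δ306 and 109 to 1019 CPM in Δ93, and in Δ104 replicates 1 to 4 it was 103.6, 511, 1154 and 2189 CPM, the same order of libraries as Dusp6, Spry1 and Etv1. In Δ93, Sertoli marker sums of 1019, 537 and 320 CPM were in replicates 6, 3 and 1, which were also the 3 highest for 6 of the 10 genes, Dusp6 (37.1, 31.1 and 24.9 CPM), Spry4, Etv1, Etv4, Etv5 and Spred2. For Spry1, Spry2, Spred1 and Il17rd they were not, and Spry1 was second highest in replicate 4 (18.8 CPM), where the Sertoli sum was 112 CPM. By call, 1 of the 12 Sertoli markers fell in Δ306 against WT and 4 fell in Δ93, where 3.46% and 6.84% of all genes fell, and the fitted change of all 12 was below 0 in both. Δ225 replicate 3 went against this, with a low Sertoli sum of 869 CPM and the highest Δ225 level of Dusp6, 74.8 CPM.

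The sum of 8 pre-granulosa markers, among them Foxl2, Fst and Wnt4, went the other way, with 67.9 to 119 CPM in WT, 73.0 to 114 CPM in Δ225, 406 to 777 CPM in Δ306, 458 to 1146 CPM in Δ93, and 799, 390, 156 and 71.4 CPM in Δ104 replicates 1 to 4. Of the 8, 7 rose in Δ306 and all 8 in Δ93 against WT, where 2.96% and 7.23% of all genes rose. None of the 8 was called in Δ104 or Δ225. Sums of 5 fetal Leydig markers, among them Cyp11a1 and Insl3, were 902 to 1554 CPM in WT, 39.8 to 91.3 CPM in Δ306 and 50.1 to 314 CPM in Δ93. By call 3 of 5 and 4 of 5 were lower, where 3.46% and 6.84% of all genes fell. In Δ104 the Leydig sums ran from 37.8 to 1629 CPM, and in Δ225 they were 452 CPM in replicate 3 and 1920.4 to 3044 CPM in the other 5 libraries, all above WT. Sums of 4 interstitial markers were 1235 to 1460 CPM in WT, 437 to 645 CPM in Δ306, 477 to 593 CPM in Δ93, 465 to 1607 CPM in Δ104 and 1142 to 1464 CPM in Δ225. Germ-cell marker sums (Ddx4, Dazl, Pou5f1, Dnd1, Mael) were low in WT replicate 1 and, at 119 CPM, in Δ104 replicate 3, which were also the libraries lowest in Etv4 in their groups (12.6 and 7.27 CPM). In Δ225 the libraries lowest in Etv4, replicates 1 and 2, had the highest germ-cell sums of their group, 907 and 838 CPM. By edgeR no germ-cell marker was called in a deletion against WT, with 1 of 5 at an unadjusted p under 0.05 in Δ93, 1 in Δ225 and 0 in Δ306 and Δ104. For 5 endothelial markers the sums were 405 to 551 CPM in WT, 264 to 374 in Δ306 and 269 to 388 in Δ93. In Δ104 and Δ225 these endothelial sums were 312 to 395 and 253 to 521 CPM. For 6 mesonephric markers the sums were 13.7 to 28.5 CPM in WT, 31.1 to 58.4 in Δ306 and 30.9 to 58.4 in Δ93. In Δ104 and Δ225 these mesonephric sums were 14.4 to 48.3 and 21.4 to 36.4 CPM. No marker of any list was at 0 in a group. The part of cell composition in the changes of the members was not tested.

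**Figure D3:**
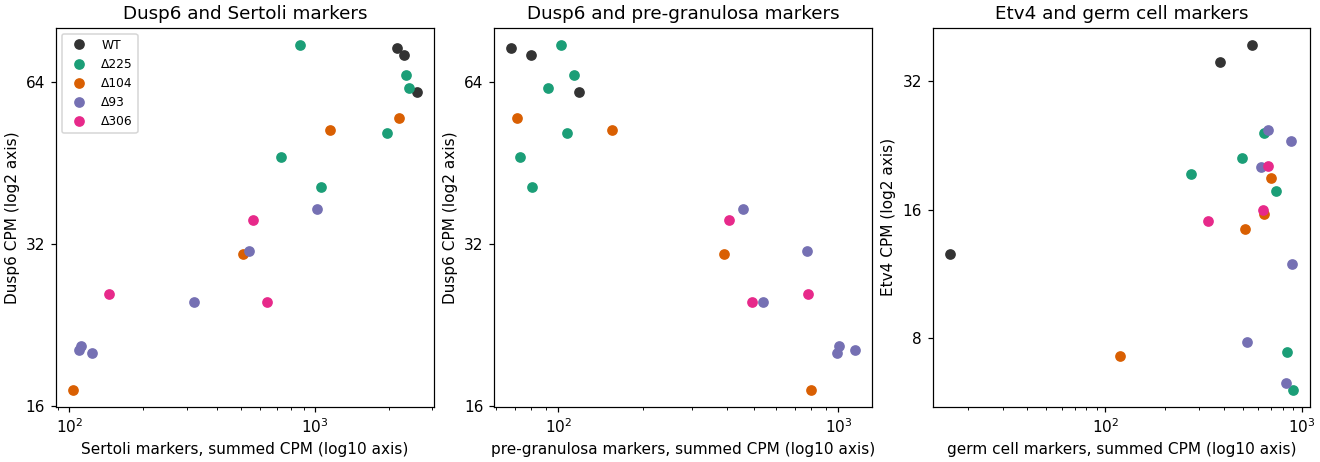
Level of Dusp6 against the summed level of 12 Sertoli markers (left) and 8 pre-granulosa markers (middle), and of Etv4 against 5 germ-cell markers (right), one point per library, CPM on log axes. Dusp6 is high where the Sertoli sum is high and the pre-granulosa sum low, with Δ104 spread along both, and the WT library at 16.1 CPM of germ-cell markers is also the WT library lowest in Etv4.

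Across the 22 libraries of the table of all deletions, Pearson's r of log2 CPM with Fgf9 was above 0 for all 10 genes, from 0.10 for Etv4 to 0.81 for Spry4, with a median of 0.64 where the median over all genes was −0.03. After adjustment over all genes, 6 of the 10 passed a two-sided permutation test, where 7.61% of all genes passed with a positive r. This permutation ignored the groups, whose Fgf9 levels differed, so its p-values also carry the differences between groups. Spry4 had r = 0.81 (raw p = 1e-05, the smallest that 100000 resamples can give, adjusted p 0.00244) and rho = 0.83, and Dusp6 had r = 0.80 (raw p = 3e-05, adjusted p 0.00305) and rho = 0.80. For Spry1 the values were r = 0.79 (raw p = 2e-05, adjusted p 0.00278) and rho = 0.83, and for Etv1 r = 0.77 (raw p = 6e-05, adjusted p 0.00374) and rho = 0.78. Without the libraries farthest from the median of Fgf9, Δ225 replicate 3 and WT replicate 1, r was 0.76 for Spry4, 0.78 for Dusp6, 0.76 for Spry1 and 0.76 for Etv1.

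Spry2 (r = 0.66, raw p = 8.8e-04, adjusted p 0.013, rho = 0.57) and Spred1 (r = 0.62, raw p = 0.00246, adjusted p 0.0242, rho = 0.63) passed the same permutation test at lower values. Etv5 (r = 0.54, adjusted permutation p 0.0581), Il17rd (0.51, 0.0817), Spred2 (0.47, 0.112) and Etv4 (0.10, 0.817) did not, and only Etv4 did not pass by Spearman's rho. Without Δ93 replicate 4, the library of highest Fgf9 and lowest Spry4 (7.77 CPM) and Etv5 (23.0 CPM) in its group, 9 genes passed, with r = 0.90 for Spry4 and 0.65 for Etv5.

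With each library centred on its group mean, r was −0.22 to 0.60 (8 of 10 above 0). With permutation within groups, none of the 10, like none of all genes, passed the test after adjustment. Dusp6 then had r = 0.50 (raw permutation p = 0.0461, adjusted p 0.609) and Spred1 r = 0.60 (raw permutation p = 0.0303, adjusted p 0.532). Within the 6 Δ225 libraries r was above 0 for 9 of 10 genes (median 0.64), and within the 6 Δ93 libraries for 1 of 10, Spry1 (median −0.34), where the smallest p that the exact permutation test allows is 0.00278 and no gene of all 22940 passed after adjustment. In Δ225 the value for Dusp6 went from 0.63 to 0.17 without replicates 3 and 6, and in Δ93 that for Il17rd went from −0.70 to 0.75 without replicates 2 and 4. With only the 10 libraries of higher Y-linked counts r was 0.85 for Dusp6 and 0.87 for Spry4, and none of the 10 genes passed.

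**Figure D4:**
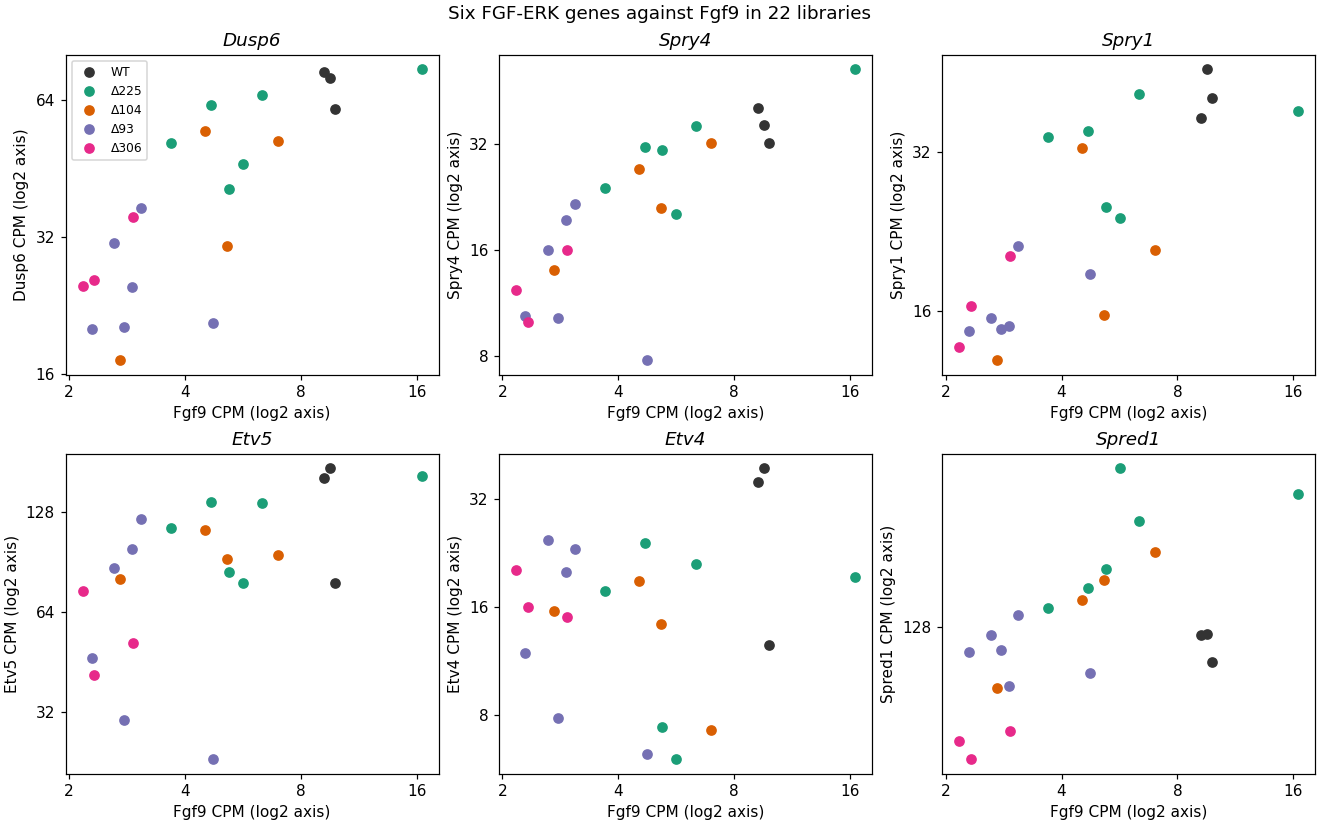
Level of 6 of the genes against Fgf9 (CPM, log2 axes), one point per library of the table of all deletions, coloured by group. Spry4, Dusp6 and Spry1 rise with Fgf9 from the Δ306 and Δ93 libraries to WT, while Etv4 does not, and the Δ93 library at 4.75 CPM of Fgf9 is low for Spry4 and Etv5.

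Among themselves the 10 genes were not equally alike. As a description over the same 22 libraries, which share their groups and depth, r of log2 CPM was above 0 in 44 of 45 pairs, with a median of 0.67, or 0.42 after centring on the group means. The closest pairs were Dusp6 with Spry1 (0.93), Dusp6 with Spry4 (0.91) and Etv1 with Dusp6 (0.91), and they stayed at 0.81, 0.81 and 0.76 after centring. Etv5 was closest to Spry4 (0.88), Il17rd (0.84) and Spred2 (0.82), and Il17rd to Etv5. Etv4 was apart, with r of −0.18 with Spred1 and its highest value, 0.67, with Etv5, a value that rose to 0.85 after centring, the highest of all pairs on that scale.

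Compared with all 14088 genes of at least 1 CPM on average, the 3 genes most like Dusp6 were Col14a1, Cend1 and Olfml3 (r = 0.96 each over 22 libraries), and Spry1 was its closest member, at rank 32. Those most like Spry1 were Nes (0.94), Dusp6 (0.93) and Sparc (0.93). For Spry4 they were Synj2, Nhlrc2 and Igsf3 (0.95 each), for Etv1 Mapre1, Plod2 and Septin11 (0.93), and for Spry2 Camk2a (0.84), Kcnj16 (0.82) and Gfpt2 (0.81). Etv4 was most like Gtse1, Mcm7 and Ccnf (0.93 each), which act in DNA replication and the cell cycle. Etv5 was most like Pfkfb3 (0.94), Dusp4 (0.94), itself an ERK phosphatase gene, and Erbb3 (0.92). Il17rd was most like Tent4a (0.96), Casp2 (0.93) and Lpin2 (0.93), Spred1 like Vcpip1 (0.93), Pik3ca (0.93) and Cnot6l (0.91), and Spred2 like Zzz3, Washc5 (0.94 each) and Cep192 (0.93).

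**Figure D5:**
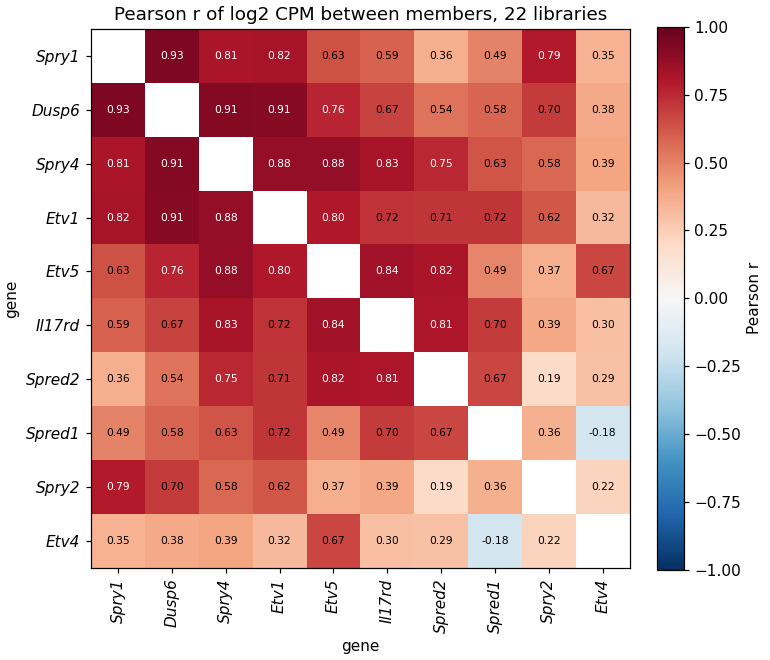
Pearson's r of log2 CPM between each pair of the 10 genes over 22 libraries, printed in each cell and coloured from −1 (blue) to 1 (red). Spry1, Dusp6, Spry4 and Etv1 form a block of 0.81 to 0.93, and Etv4 and Spry2 are the least like the others.

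In Meis1 KO, where the homeobox gene Meis1 was at 0.201 to 0.695 CPM against 62.1 to 109 CPM in WT, the members were near WT. Spred1 rose, from 124, 134 and 133 CPM in WT to 164, 163, 168 and 169 CPM in Meis1 KO, with no overlap. Its log2 fold change was 0.35 (SE 0.06, adjusted p 0.0408), and it was the 1 of 10 genes called, where 1.8% of the 16791 genes tested were called and 1.27% rose. Dusp6 was at 65.8, 79.0 and 75.7 CPM in WT and at 95.9, 91.6, 114 and 100.3 CPM in Meis1 KO, again with no overlap. Its log2 fold change of 0.45 (SE 0.10) was larger. With all libraries it was called by DESeq2 (adjusted p 0.00435) but not by edgeR (adjusted p 0.0638). All Meis1 KO libraries were above all WT libraries for these 2 genes, as for 12.3% of all genes. Sertoli marker sums were 1653 to 2144 CPM in Meis1 KO and 2337 to 2811 CPM in WT (2 of 12 markers called lower). Erythroid sums were 707 to 1263 and 1519 to 2035 CPM (2 of 5 called lower), and Y-linked sums 3.67 to 15.8 and 33.3 to 81.6 CPM. Each was without overlap, and their part in the changes was not tested. The same WT libraries had erythroid sums of 10732 to 13095 CPM in the table of all deletions, so levels cannot be compared between the 2 tables.

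The other 8 genes overlapped WT, with log2 fold changes from −0.22 (Etv4) to 0.16 (Il17rd), and Fgf9 was at 12.3, 11.7, 12.1 and 11.2 CPM against 10.6, 9.80 and 10.2 CPM in WT (log2 fold change 0.22, adjusted p 0.256). The Spred1 call was lost when any library other than WT replicate 1 was left out, and in the absence of the 2 Meis1 KO libraries of low Y-linked counts. Without WT replicate 1 the fit called 2204 of 16791 genes in place of 303, and 5 of the members: Spred1 (0.32) and Dusp6 (0.38, adjusted p 0.0317) higher, and Etv1 (−0.38, adjusted p 0.0381), Etv4 (−0.58, adjusted p 0.0173) and Etv5 (−0.48, adjusted p 0.0174) lower. In the Meis1 table that library had a germ-cell marker sum of 19.3 CPM, where the other WT libraries had 454 and 659 CPM and Meis1 KO 240.1 to 450.2 CPM, and its part in these values was not tested.

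The rest of the pathway, a list of 64 receptor, adaptor, kinase, phosphatase and early-response genes of which 62 were tested in the table of all deletions, held calls in both directions. In Δ306 against WT 4 fell and 1 rose (8.06% of the list, 6.43% of all genes), and in Δ93 against WT 8 fell and 6 rose (22.6% of the list, 14.1% of all genes). The median log2 fold change of the list was −0.15 and 0.02, near the 0.08 and 0.06 of all genes. Fosl2, an AP-1 subunit, fell by 1.64 in Δ306 (adjusted p 0.00715) and by 1.33 in Δ93, and Egr1, an immediate-early target of ERK, fell by 1.02 in Δ306. In Δ306 Fgfr1 also fell, by 0.74, and in Δ93 Dusp4 fell by 1.75 and Egr3 by 1.57.

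Dusp5, which encodes a nuclear ERK phosphatase, rose by 1.57 in Δ306 and by 2.07 in Δ93, where its relative Dusp6 fell. Also in Δ93, Ksr2, a scaffold of the Raf-MEK-ERK cascade, rose by 2.03 and Ier3, an early-response gene, by 1.14. Among the receptors, Fgfr2 was higher in Δ93 by 1.13 and in Δ306 by 0.77, the latter not a call, Fgfr3 had log2 fold changes of 0.61 and 0.22 and Fgfr4 of −0.64 and −1.27, none of these called. In Δ104 and Δ225 against WT none of the 62 genes was called by edgeR, with 17 and 18 at an unadjusted p under 0.05, where 3610 and 3687 of the 22941 genes were under it.

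Between deletions, 8 of the 62 genes were higher and 4 lower in Δ225 than in Δ306 (13.2% of all genes changed), and 7 were higher and 7 lower than in Δ93 (20.8%). Fgfr4 was higher by 1.85 and 1.22, Egr1 by 1.33 and 1.27 and Fosl2 by 1.38 against Δ306, and Egr3 by 1.74 against Δ93. Dusp9, another ERK phosphatase gene, was lower in Δ225 by 1.75 and 1.92 on the log2 scale, Dusp5 by 1.33 and 1.83, and the cyclin gene Ccnd1 by 1.31 against Δ306, and at 0.436 times its level in Δ93. In Meis1 KO 1 of 63 tested genes was called, Ier3, at 2.15-fold the WT level (adjusted p 0.0449), where 1.8% of all genes were called.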

How the data were processed

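Gene-level read counts were deposited by the authors as 3 tables (all deletions with WT, Meis1 KO with WT, and Δ306 with WT). The same WT libraries have different counts in them: WT replicate 1 holds 38.3 M with all deletions and 35.5 M with Meis1 KO. The submitters' processing notes name STAR 2.7.10a, featureCounts of Subread, DESeq2 and the mm10 build, and other settings are not given in the sources used here. Strandedness is among these, so reads of genes and their antisense partners cannot be told apart. The Δ306 comparison used the table of all deletions, with the smaller one as an alternative.

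Genes passing edgeR's filterByExpr were tested with edgeR 4.0.16 (TMM factors, quasi-likelihood test, R 4.3.3) in 1 fit per table, with Benjamini-Hochberg adjustment over all genes tested, and checked on simulated counts. DESeq2 1.42.0 was an alternative. Correlations used log2 CPM with a prior count of 2, and 100000 resamples or, for 6 libraries, all permutations. Their p-values were adjusted over all genes in each set of libraries, rather than over the members as first planned. The depths given in the report limit precision for low genes such as Fgf9. No 2 libraries of a group agreed within sampling noise (chi-square per degree of freedom at least 9.65 in 51 pairs).

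The members and lists were chosen with earlier results of these data known. Named genes are the members, Fgf9, Meis1, up to 3 other pathway genes called with the largest rise and up to 3 with the largest fall per comparison, Fgfr1 to Fgfr4, and for each member the 3 genes of highest correlation among those of at least 1 CPM on average, leaving out predicted-gene names.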

Additional observations from a re-analysis of the deposited data

Results flagged for a closer look

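Among 44 checks of single libraries within groups of 4 to 6, 2 stood apart, both for Fgf9, and chance alone gives about 1 in 20. Δ225 replicate 3 had 16.5 CPM of Fgf9, where the other 5 Δ225 libraries had 3.69 to 6.36 CPM, and the gap was 0.792 of the whole range. The same library had the highest Δ225 levels of Spry4 (52.3 CPM), Dusp6 (74.8 CPM) and Etv5 (165 CPM), and without it 5 rather than 6 of the 10 genes passed the correlation test with Fgf9. Δ93 replicate 4 had 4.75 CPM of Fgf9, where the other 5 Δ93 libraries had 2.30 to 3.09 CPM (gap 0.677 of the range). That library had the lowest Δ93 levels of Spry4, Etv5, Il17rd (32.7 CPM) and Spred2 (25.2 CPM). It also had the highest erythroid marker sum in the table of all deletions, 54663 CPM. The part of the erythroid share in its levels was not tested.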

How the results depend on the processing

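No member changed direction while called, and of 1680 values for single genes under alternatives 1590 kept their side of the threshold, 60 lost a call and 30 gained one. For Δ306 against WT (5 called) the count was 0 at an adjusted p under 0.01 and 0 to 4 with 1 library left out. It was 8 with only the 2 groups in the fit (3429 of all genes called) and 8 in the smaller table (3101). Without the libraries of low Y-linked counts it was 3 (456 of all genes called). For Δ225 against Δ306 (7) it was 2 at an adjusted p under 0.01, 0 without the libraries of low Y-linked counts and 2 to 7 with 1 left out. For Meis1 KO against WT (1) it was 2 with DESeq2, 0 at an adjusted p under 0.01, 0 with no filter on low counts, 0 without the libraries of low Y-linked counts and 0 to 5 with 1 left out. DESeq2 called 1 in Δ104 and 1 in Δ225 against WT and 2 in Δ104 against Δ306. Leaving out 1 library gave 0 to 1 in Δ104 against WT, Δ225 against Δ104, Δ104 against Δ306 and Δ93 against Δ104. The count of 6 correlated with Fgf9 was 0 after centring on the group means, 0 in the 10 libraries of higher Y-linked counts and 9 by rank. Replicate numbers gave little sign of pairing the samples: the deviations of same-numbered libraries correlated at a mean of 0.02 over 35 pairs, 9 of them over 0.1. With the replicate number as a block the counts were 4 in Δ306 against WT, 6 in Δ225 against Δ306, 8 in Δ225 against Δ93, 1 in Δ104 against WT and 0 in Meis1 KO. Calls over all genes against WT then went from 48 to 1638 in Δ225, from 14 to 470 in Δ104 and from 303 to 32 in Meis1 KO. They went from 1474 to 1292 in Δ306 and from 3229 to 3346 in Δ93. Comparisons with Δ93 could not be made without libraries of low Y-linked counts, since all 6 were low. The cause of these differences was not tested. Fitted without composition factors, the median change of all genes in Δ306 against WT was 0.17 in place of 0.08, and 4 members were called.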
